A study of Mus musculus with 14 samples.

Results

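The 7 genes described here, Pmp22, Pmp2, Prx, Ncmap, Drp2, Cldn19 and Egr2, belong to Schwann cells, the glia that myelinate peripheral axons, and were followed through 14 mouse spinal cord samples. They were chosen by name from the 56748 genes of the deposited table of FPKM (fragments scaled by gene length and library size), and 1 row carried each name. Of the 7, 6 passed the filter on low values that kept 15155 genes for testing, namely 3 or more libraries with an FPKM of 1 or above. Pmp2 did not. The study set control mice beside mice labelled AstroCSF1KO, an astrocyte knockout of Csf1, the growth factor that sustains microglia through its receptor. Each genotype was sampled without injury (3 controls, called naive in the labels, and 3 AstroCSF1KO) and 7 days after spinal cord injury, SCI (4 of each). Uninjured tissue came from the level of cord matching the lesion. The sources used here do not give the Cre driver, the strain, the age of the mice or the kind of injury. Because the tissue was measured whole, fewer cells of a type and less RNA per cell cannot be told apart.

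Peripheral nerve myelin is made by Schwann cells, each of which wraps a single stretch of axon, whereas oligodendrocytes make the myelin of the cord itself. Schwann cells are normally found outside the cord, in the spinal roots and nerves, and after injury can also populate the lesion. Their myelin programme is driven by the transcription factor Egr2 (Krox20) acting with Sox10. Pmp22 and Pmp2 are proteins of compact myelin, periaxin (Prx) and Drp2 form a complex with dystroglycan at the outer membrane of the myelin sheath, and Cldn19 forms tight junctions between the membrane layers of one cell. Ncmap encodes a membrane protein of non-compact myelin. Pmp22, Drp2 and Egr2 are also transcribed in cells other than Schwann cells.

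Recovered read totals ran from 13263610 to 21969581 per library. In 3 control libraries (uninjured replicate 1, SCI replicate 1 and SCI replicate 4) only 1.45 to 2.06% of the detected genes had exactly 1 read, against 8.44 to 11.6% in the other 11, so these 3 stand apart. The tissue carried its defining transcripts throughout, with 14 central myelin genes summing to 4170 to 5811 FPKM in every library, against 57.9 to 317 FPKM for the 7 members. Reads of ribosomal RNA genes made up 2.89 to 3.99% in 4 labelled-knockout libraries (uninjured replicate 3 and SCI replicates 2, 3 and 4) and at most 0.764% in the other 10. The Y-linked Ddx3y was expressed in control uninjured replicate 1, control SCI replicates 1, 2 and 3, and replicates 1 and 2 of both AstroCSF1KO groups. The rest expressed the female-specific transcript Xist instead. Sex was thus mixed within every group and not balanced between all groups, and no fit included it. Taken over all libraries, Csf1 did not separate the genotypes. It stood at 8.23 to 11.0 FPKM in uninjured and 16.4 to 19.9 FPKM in injured AstroCSF1KO cords, against 4.24 to 12.2 and 7.95 to 18.3 FPKM in the controls. The lowest control values, 4.24 and 7.95 FPKM, belong to libraries that stand apart. The controls that do not had 11.9 and 12.2 FPKM uninjured, above the uninjured AstroCSF1KO cords. Injured, they had 17.6 and 18.3 FPKM, within the range of the injured AstroCSF1KO cords. Measured in whole tissue, these values do not tell Csf1 of astrocytes from that of other cells. Each genotype contrast below therefore rests on the labels alone.

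The RefSeq promoter table used here (GRCm38.p6) covers 5 of the 7 genes, with 14 start sites in all. Of these, 4 are shown because Prx and Cldn19 spanned 105-fold and 110-fold over the libraries, whereas Ncmap and Pmp22, lowest in the same 3 libraries, spanned 6.63-fold and 5.65-fold. Each window runs from 250 bases before to 50 bases after the start, 5′ to 3′ on the strand of the gene. Capitals mark a match to the TEAD motif GGAATG, read here on the opposite strand. The windows are chr7:27499074-27499373 on the plus strand for Prx, chr4:119255191-119255490 on the plus strand for Cldn19, chr4:135398178-135398477 on the minus strand for Ncmap and chr11:63128732-63129031 on the plus strand for Pmp22 (the first of its 4 listed starts).
Prx: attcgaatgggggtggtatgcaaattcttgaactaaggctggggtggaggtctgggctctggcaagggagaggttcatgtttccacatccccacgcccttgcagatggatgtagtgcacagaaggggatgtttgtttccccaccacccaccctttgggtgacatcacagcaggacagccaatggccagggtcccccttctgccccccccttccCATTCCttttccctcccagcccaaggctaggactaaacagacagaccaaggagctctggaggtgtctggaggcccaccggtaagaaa
Cldn19: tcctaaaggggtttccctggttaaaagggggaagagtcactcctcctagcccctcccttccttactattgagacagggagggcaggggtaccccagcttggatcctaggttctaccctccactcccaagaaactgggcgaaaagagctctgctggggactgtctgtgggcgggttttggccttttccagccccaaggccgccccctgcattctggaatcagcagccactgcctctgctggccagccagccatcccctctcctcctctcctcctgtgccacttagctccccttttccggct
Ncmap: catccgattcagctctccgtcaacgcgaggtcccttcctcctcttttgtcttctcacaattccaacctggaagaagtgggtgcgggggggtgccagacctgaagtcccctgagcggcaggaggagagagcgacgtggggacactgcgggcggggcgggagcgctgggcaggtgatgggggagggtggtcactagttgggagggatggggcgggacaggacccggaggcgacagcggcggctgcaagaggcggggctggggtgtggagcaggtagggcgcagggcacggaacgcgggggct
Pmp22: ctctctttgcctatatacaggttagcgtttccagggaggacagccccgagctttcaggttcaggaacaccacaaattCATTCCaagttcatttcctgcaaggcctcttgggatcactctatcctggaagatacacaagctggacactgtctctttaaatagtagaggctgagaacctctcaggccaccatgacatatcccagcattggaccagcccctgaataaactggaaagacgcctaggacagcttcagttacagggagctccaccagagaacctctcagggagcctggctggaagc
Searched on both strands, 3 of the 14 member windows held GGAATG (1 each of Pmp22, Prx and Egr2), and 14.7% of all 32851 windows of this length hold it. None of the 14 held the EGR motif GCGNGGGCG, present in 5.55% of all windows, or the SOX motif ACAAAG, present in 18.7%. Since only GGAATG matched, no match overlapped another motif. The absence of a match says only that the letters are not in these windows.

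**Figure D1:**
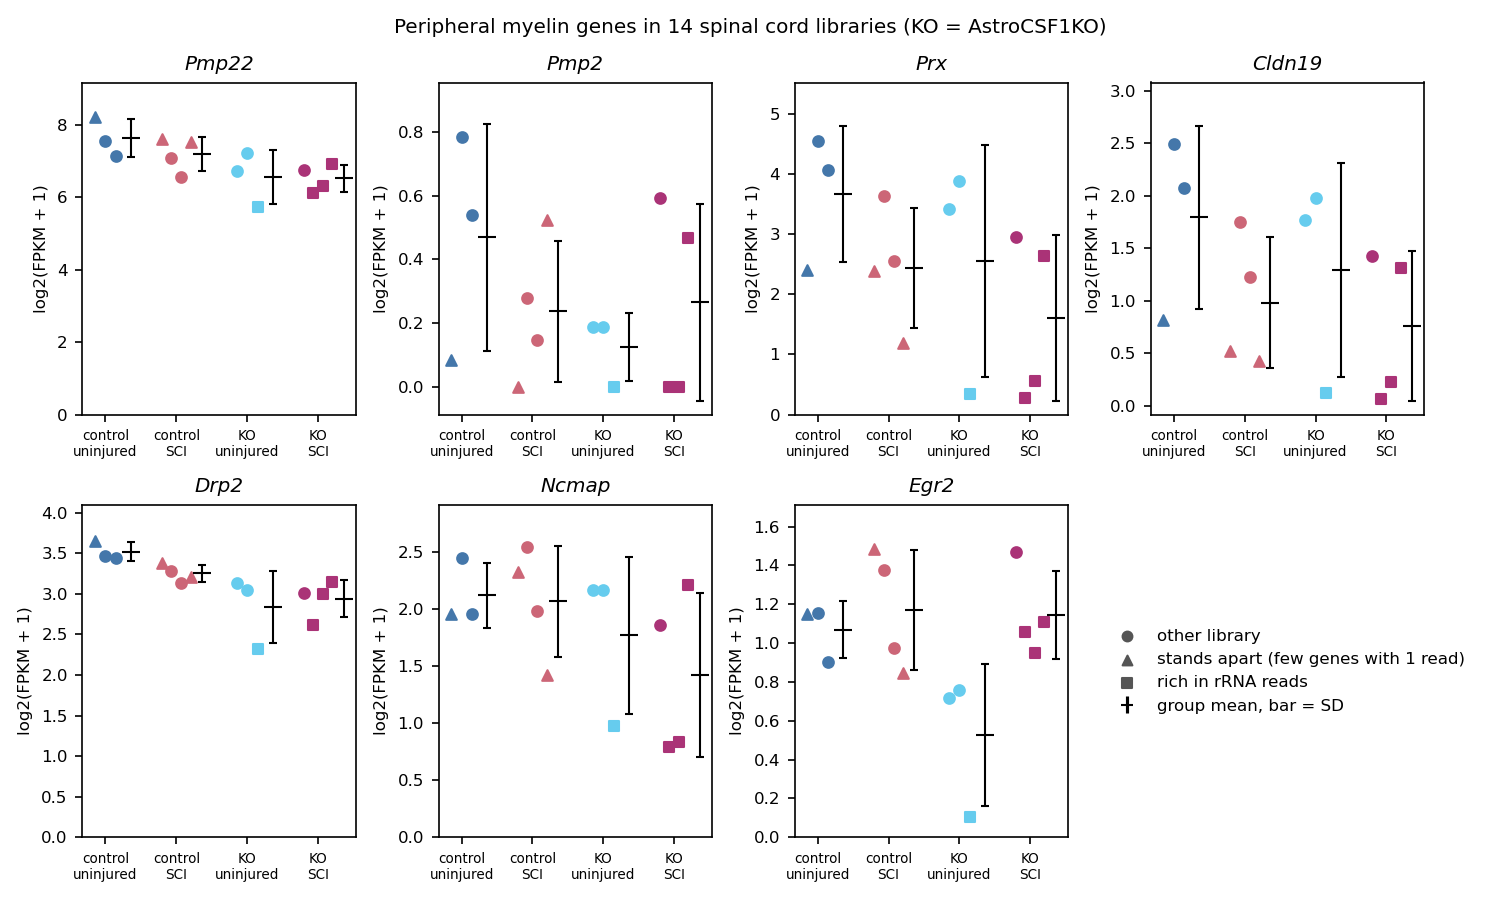
Level of each of the 7 genes, as log2(FPKM + 1), in the 14 libraries by group, with the group mean and SD beside the points. Triangles are the 3 control libraries that stand apart and squares the 4 labelled-knockout libraries rich in rRNA reads. Prx and Cldn19 lie near 0 in AstroCSF1KO uninjured replicate 3 and SCI replicates 2 and 3, where Pmp22 and Drp2 are also lowest but far from 0.

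The gene for peripheral myelin protein 22, Pmp22 (ENSMUSG00000018217, mm39 chr11:63019808-63050373, plus strand), had the highest FPKM of the 7 in every library. Uninjured controls had 296, 187 and 142 FPKM, and uninjured AstroCSF1KO cords had 106, 148 and 52.5 FPKM. Injured controls had 194, 135, 94.4 and 183 FPKM, and injured AstroCSF1KO cords had 107, 68.7, 78.7 and 120 FPKM. Every pair of groups overlapped except uninjured controls and injured AstroCSF1KO cords, and the span from the lowest library to the highest was 5.65-fold. The 3 controls that stand apart held 3 of the 4 highest values, and AstroCSF1KO uninjured replicate 3 and SCI replicates 2 and 3 held the 3 lowest.

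Pmp2, a lipid-binding protein of the cytoplasmic face of compact myelin (ENSMUSG00000052468, chr3:10244911-10248989, minus strand), was barely detected, with 0 to 21 reads a library. Its FPKM was 0.0590, 0.723 and 0.453 in uninjured controls and 0.138, 0.138 and 0 in uninjured AstroCSF1KO cords. After injury the FPKM was 0, 0.213, 0.106 and 0.437 in controls and 0.507, 0, 0 and 0.383 in AstroCSF1KO cords. A value of 0 allows up to 3 reads, which in those 4 libraries is 0.110 to 0.128 FPKM. The groups overlapped, and no difference in Pmp2 was detectable at this depth (exact two-sided permutation p = 0.343 for injury in controls and 0.571 in AstroCSF1KO).

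Periaxin, Prx (ENSMUSG00000053198, chr7:27196813-27219639, plus strand), was the most variable of the well-detected members. The uninjured controls gave 4.27, 22.3 and 15.7 FPKM and the uninjured AstroCSF1KO cords 9.74, 13.8 and 0.263 FPKM. The injured controls gave 4.24, 11.4, 4.87 and 1.29 FPKM and the injured AstroCSF1KO cords 6.75, 0.212, 0.478 and 5.25 FPKM. The 3 values under 0.5 rest on 20 to 48 reads and belong to AstroCSF1KO uninjured replicate 3 and SCI replicates 2 and 3. From the lowest library to the highest Prx spanned 105-fold, and every group overlapped every other.

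Drp2, which links periaxin to dystroglycan (ENSMUSG00000000223, chrX:133305300-133357322, plus strand), was the steadiest member, spanning 2.90-fold. Without injury, the controls had 11.6, 10.1 and 9.83 FPKM and the AstroCSF1KO cords 7.78, 7.31 and 4.01 FPKM. With injury, the controls had 9.39, 8.75, 7.77 and 8.27 FPKM and the AstroCSF1KO cords 7.07, 5.12, 7.01 and 7.84 FPKM. Every uninjured control exceeded every other library, while the injured control and injured AstroCSF1KO cords overlapped by 1 library on each side. The 3 lowest values were again those of AstroCSF1KO uninjured replicate 3 and SCI replicates 2 and 3.

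Claudin 19, Cldn19 (ENSMUSG00000066058, chr4:119112611-119119635, plus strand), stood in uninjured cords at 0.759, 4.65 and 3.20 FPKM in controls and at 2.42, 2.95 and 0.0845 FPKM in AstroCSF1KO. Injured controls had 0.435, 2.36, 1.34 and 0.346 FPKM, and injured AstroCSF1KO cords had 1.70, 0.0422, 0.172 and 1.48 FPKM. The low libraries were those of Prx, the smallest value resting on 3 reads, and the groups overlapped. Ncmap (ENSMUSG00000043924, chr4:135096887-135125538, minus strand) stood in uninjured cords at 2.87, 4.46 and 2.89 FPKM in controls and at 3.50, 3.48 and 0.970 FPKM in AstroCSF1KO. After injury the FPKM was 4.01, 4.82, 2.95 and 1.69 in controls and 2.63, 0.727, 0.785 and 3.63 in AstroCSF1KO cords. The same 3 libraries were lowest for Ncmap, which spanned 6.63-fold.

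Egr2 (ENSMUSG00000037868, chr10:67371305-67378018, plus strand) stood in uninjured cords at 1.22, 1.23 and 0.867 FPKM in controls and at 0.645, 0.689 and 0.0757 FPKM in AstroCSF1KO. The injured controls gave 1.80, 1.59, 0.966 and 0.797 FPKM and the injured AstroCSF1KO cords 1.76, 1.08, 0.929 and 1.16 FPKM. The uninjured AstroCSF1KO cords were lowest, below every library of the other 3 groups. In AstroCSF1KO SCI replicates 2 and 3, where Prx and Cldn19 were near 0, Egr2 lay within the range of the injured controls.

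The same 3 libraries, AstroCSF1KO uninjured replicate 3 and SCI replicates 2 and 3, were thus lowest for Prx, Cldn19, Ncmap, Pmp22 and Drp2, but by very different amounts. The ratio of Prx to Cldn19 FPKM kept between 2.78 and 9.74 over the 14 libraries, with a median of 4.35, although both genes were near 0 in some. The ratio of Pmp22 to Drp2 kept between 11.2 and 25.5. Between these pairs the ratio moved more widely, and that of Pmp22 to Prx ran from 8.38 in control uninjured replicate 2 to 324 in AstroCSF1KO SCI replicate 2. It was 199 in AstroCSF1KO uninjured replicate 3, 165 in AstroCSF1KO SCI replicate 3 and 142 in control SCI replicate 4.

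**Figure D2:**
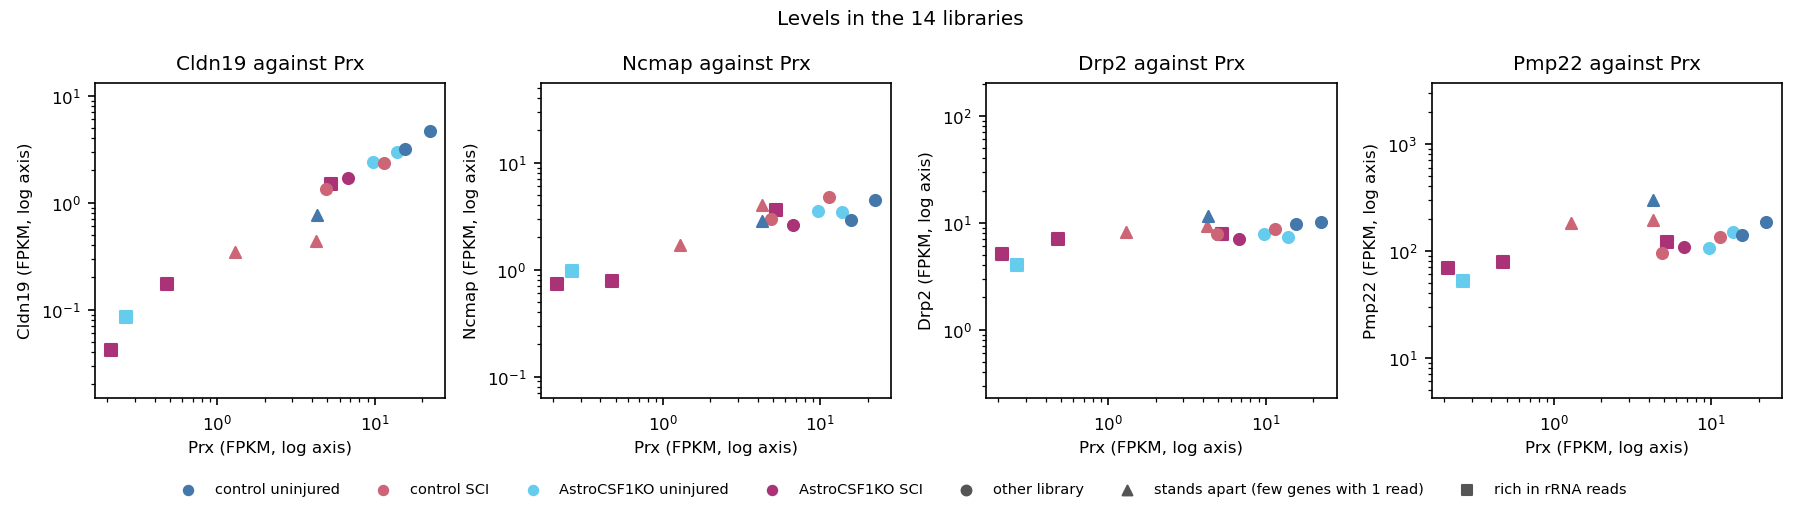
FPKM of Cldn19, Ncmap, Drp2 and Pmp22 against that of Prx in the 14 libraries, all on log axes, coloured by group. Cldn19 and, less steeply, Ncmap fall with Prx to 3 labelled-knockout libraries at the lower left, while Drp2, though lowest in the same libraries, stays between 4.01 and 11.6 FPKM and Pmp22 between 52.5 and 296 FPKM.

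Among the genes whose deviations from group means were most like those of the 6 tested members was Slc36a2, an amino acid transporter (Pearson r = 0.846 over 14 libraries, a description only). Gm7292, Rilp, Plekha4, Cbx1, Gypc, Rpl36a-ps3 and Gm47399 had values of 0.779 down to 0.734. Depth, library make-up and tissue content are shared by the points of these correlations, and the libraries with near-nil Prx weigh on all of them.

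Most other genes listed for Schwann cells were not lower in all 3 of these libraries than in every other library, though Dhh and Plekha4 nearly were. Of the 7 other genes of myelinating Schwann cells in the heatmap, Cdh1 alone was lower in all 3 than in every other library, and of the repair and non-myelinating genes Scn7a alone was. Both are named after their values were seen. Cdh1, the E-cadherin of Schwann cell autotypic junctions, stood at 0.0450 FPKM in AstroCSF1KO uninjured replicate 3 and at 0.0393 and 0.234 FPKM in SCI replicates 2 and 3, against 0.777 to 6.15 FPKM elsewhere. Scn7a, a sodium channel gene of non-myelinating Schwann cells, stood at 0.357, 0.278 and 0.476 FPKM in these libraries and at 1.04 to 7.88 FPKM elsewhere. Dhh, likewise named after its values were seen, stood there at 0.0468, 0.0682 and 0.167 FPKM (4, 5 and 13 reads). Elsewhere only control SCI replicate 1, at 0.140 FPKM, was below 0.167. Plekha4 stood there at 0.242, 0.706 and 0.849 FPKM. Elsewhere only control uninjured replicate 1, at 0.547 FPKM, and control SCI replicate 4, at 0.290 FPKM, were below 0.849. By contrast Lgi4, a secreted Schwann cell protein, stood at 4.60, 6.05 and 7.44 FPKM there, within the 0.779 to 8.45 FPKM of the other libraries. Ngfr, the p75 neurotrophin receptor of repair and non-myelinating Schwann cells, stood at 1.33, 1.98 and 1.996 FPKM, within 0.393 to 10.2 FPKM elsewhere. The lowest values of Lgi4 and Ngfr elsewhere, 0.779 and 0.393 FPKM, belong to control uninjured replicate 1 and control SCI replicate 4, which stand apart. The highest values of Ngfr, 9.74 and 10.2 FPKM, belong to control SCI replicate 2 and AstroCSF1KO SCI replicate 4. These are also the libraries highest in the nociceptor gene Scn10a. Which cells the reads of Lgi4 and Ngfr came from was not tested.

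Genes shared with oligodendrocytes did not follow. Gjb1, which encodes connexin 32 of both kinds of myelin, stood at 70.0, 61.5 and 71.7 FPKM in AstroCSF1KO uninjured replicate 3 and SCI replicates 2 and 3. Sox10, the lineage factor of both glia, stood there at 60.9, 53.8 and 61.2 FPKM. The summed FPKM of 14 central myelin genes was 5195, 5021 and 5811 in these libraries, the first and second within and the third above the 5004 to 5554 of the other labelled-knockout libraries. All 3 are among the 4 libraries rich in rRNA reads, but the fourth, AstroCSF1KO SCI replicate 4, had Prx at 5.25 FPKM and Cldn19 at 1.48 FPKM. The part of the rRNA share in these levels was not tested.

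**Figure D3:**
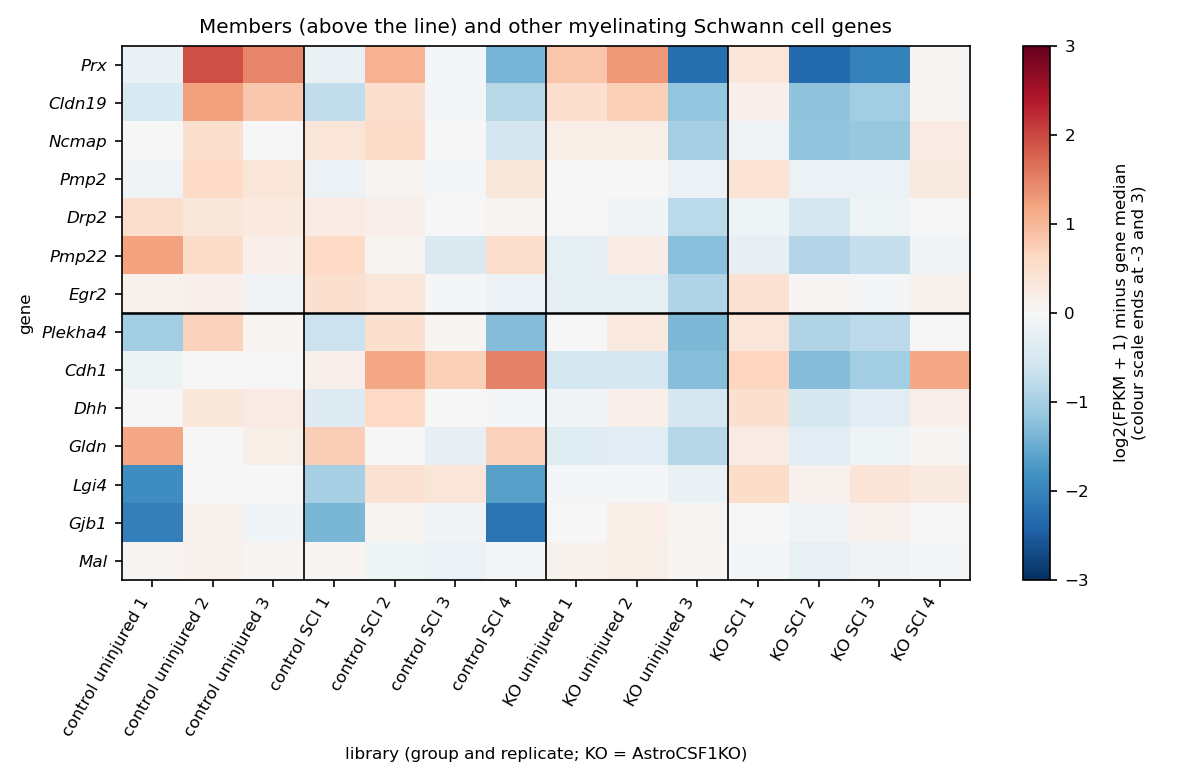
log2(FPKM + 1) of the 7 genes (above the line) and of 7 other genes of myelinating Schwann cells in each of the 14 libraries, less the median of the gene over them. Prx is darkest blue in AstroCSF1KO uninjured replicate 3 and SCI replicates 2 and 3, whereas Gjb1 and Lgi4 are lowest in the 3 controls that stand apart.

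In the 3 controls that stand apart, Prx and Cldn19 were lower and Pmp22 higher than the mean of the 2 libraries of their group that do not stand apart. The log2 difference was -1.90, -0.71 and -1.90 for Prx and -1.47, -0.97 and -1.06 for Cldn19, in uninjured replicate 1, SCI replicate 1 and SCI replicate 4 in that order. For Pmp22 it was 0.86, 0.77 and 0.69. Against all 3 other injured controls the differences were smaller, at -0.07 and -1.66 for Prx, -0.61 and -0.74 for Cldn19 and 0.54 and 0.43 for Pmp22 in SCI replicates 1 and 4, so that Prx in SCI replicate 1 was then level with its group. Across 14888 genes the differences from the libraries that do not stand apart ran against the GC content of the transcript, with Spearman rho of -0.782, -0.769 and -0.811 across genes, which are not independent replicates. Prx has a transcript of 57.7% GC, above 88.8% of those genes. Cldn19 has one of 53.8%, above 71.0% of them, and Pmp22 one of 48.6%, above 44% of them. Drp2, at 48.7% GC, differed by only 0.21, 0.17 and 0.004 in the same order. Ncmap, at 55.0% GC, differed by -0.25, 0.06 and -0.84, and Egr2, at 51.4% GC, by 0.12, 0.31 and -0.33. How far base composition set the levels of the members in these libraries was not tested.

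The first comparison asks what injury did in control cords, and no member passed the test. Of the 6 tested, 5 were lower and Egr2 was higher, with 0 called at an adjusted p under 0.05 in limma's test (adjusted over the 15155 genes), where 1.04% of all genes were called. The median log2 change of the 6 was -0.36, against -0.05 over all genes. Prx had the largest fitted change, -1.22 ± 0.68 on the log2(FPKM + 1) scale (SE, adjusted p = 0.738), followed by Cldn19 at -0.81 ± 0.49 (adjusted p = 0.791). The 4 injured controls all had less Drp2 than the 3 uninjured ones, with a log2 change of -0.27 ± 0.19, a limma adjusted p of 0.862 and an exact two-sided permutation p of 0.0571, the smallest that 3 against 4 allows. Of all genes, 4.76% were lower without overlap in this comparison. Without the 3 libraries that stand apart Prx was at -1.21 and Cldn19 at -0.80, still short of the threshold (limma adjusted p = 0.0915 and 0.0726). The uninjured controls left, replicates 2 and 3, had the female-specific transcript Xist at 15.2 and 20.6 FPKM. The injured controls left, SCI replicates 2 and 3, had Xist at 0.00239 and 0 FPKM and the Y-linked Ddx3y at 13.8 and 11.8 FPKM. In this fit injury and sex cannot be told apart.

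In AstroCSF1KO cords Egr2 was the only one of the 6 tested members called after injury. It rose by 0.62 ± 0.19 on the log2 scale (SE, limma adjusted p = 0.0318), from 0.470 ± 0.342 (SD, n = 3) to 1.23 ± 0.37 FPKM (SD, n = 4), and all 4 injured libraries lay above the 3 uninjured ones. Among all genes 45.8% were called in this comparison, 19.7% as higher, and 22.3% were higher without overlap, so 1 call among 6 members is no excess over the background. The call rests on single libraries: without AstroCSF1KO uninjured replicate 3, in which Egr2 had 5 reads, the change was 0.41 (adjusted p = 0.0848), and without SCI replicate 1 or SCI replicate 4 the adjusted p was 0.0639 and 0.0575. It was lost also with a pseudocount of 0.1, with TPM, without the filter and in a fit of all 14 libraries, at adjusted p = 0.0518 to 0.117.

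The other 5 members did not pass the test in AstroCSF1KO cords. Prx differed by -0.94 ± 0.98, Cldn19 by -0.53 ± 0.52 and Ncmap by -0.35 ± 0.43 on the log2 scale (SE). Pmp22, at -0.04 ± 0.34, and Drp2, at 0.11 ± 0.21, had the smallest fitted changes. The median change of the 6 was -0.19, against -0.03 over all genes.

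With injury averaged over both genotypes in all 14 libraries, none of the 6 was called, while 18.0% of all genes were. Egr2 was at 0.36 ± 0.16 (SE, limma adjusted p = 0.151, exact permutation within genotype p = 0.0441), Prx at -1.08 ± 0.64 (limma adjusted p = 0.299) and Cldn19 at -0.67 ± 0.38 (limma adjusted p = 0.268). Without the 3 controls that stand apart Egr2 was called as higher, at 0.44 (limma adjusted p = 0.0359). In that fit 7751 of the 15155 genes were called, so 1 call among 6 members is no excess over the background. Its controls are uninjured replicates 2 and 3 and SCI replicates 2 and 3, in which injury and sex cannot be told apart. Without the 3 controls and the 4 labelled-knockout libraries rich in rRNA reads, Prx was at -1.005 ± 0.283 and Cldn19 at -0.66 ± 0.17 (SE).

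That last fit holds 4 uninjured and 3 injured libraries, with a lone injured AstroCSF1KO library assumed to vary like the others. Its 2 uninjured controls had the female-specific transcript Xist at 15.2 and 20.6 FPKM, while its 2 injured controls had it at 0.00239 and 0 and had the Y-linked Ddx3y at 13.8 and 11.8 FPKM. In those controls injury and sex cannot be told apart. Its 3 AstroCSF1KO libraries all expressed Ddx3y, at 11.2 to 13.6 FPKM, and within them Prx was at 9.74 and 13.8 FPKM without injury and at 6.75 FPKM with it.

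**Figure D4:**
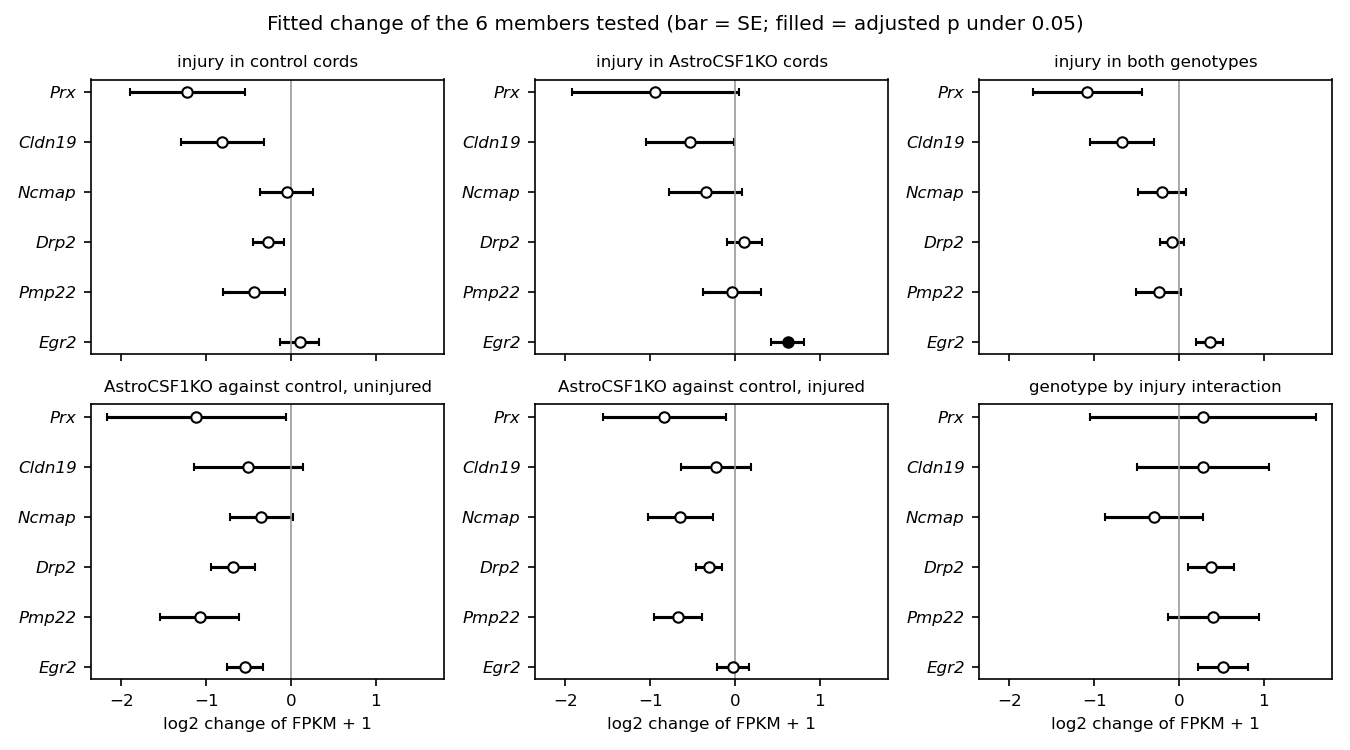
Fitted log2 change of FPKM + 1 (point) and SE (bar) of the 6 tested members in the 6 comparisons, with filled points for adjusted p under 0.05. Egr2 after injury in AstroCSF1KO cords, at 0.62, is the only filled point, and the bars of Prx are the widest.

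Between the genotypes, all 6 fitted changes were lower in the labelled-knockout cords, both without and with injury, and none was called. No gene of the 15155 was called by limma in either contrast (0%), with 331 genes at an unadjusted p under 0.05 in uninjured and 497 in injured cords, and voom also called 0. In uninjured cords Pmp22 was at -1.08 ± 0.47 on the log2 scale and Prx at -1.12 ± 1.05 (SE, limma adjusted p = 0.603 and 0.605). Control replicate 1, which stands apart, had Pmp22 at 296 FPKM. The other controls had 187 and 142 FPKM, against 52.5 to 148 FPKM in AstroCSF1KO. All 3 libraries that stand apart are controls, so standing apart and genotype are not fully separated in these contrasts. Drp2, at -0.68 ± 0.26, and Egr2, at -0.54 ± 0.21, were lower in all 3 AstroCSF1KO libraries than in all 3 controls, as were 11.1% of all genes (limma adjusted p = 0.603 for both, exact permutation p = 0.1, the smallest possible). The median of the 6 was -0.61, against 0.04 over all genes. Without AstroCSF1KO uninjured replicate 3 Prx was at -0.01, Ncmap at 0.05 and Cldn19 at 0.08, so that this library decided the direction of the last 2.

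In injured cords Pmp22 was at -0.67 ± 0.28 and Prx at -0.83 ± 0.73 (SE, limma adjusted p = 0.477 and 0.499). Control SCI replicates 1 and 4, which stand apart, had Pmp22 at 194 and 183 FPKM. The other injured controls had 135 and 94.4 FPKM, against 68.7 to 120 FPKM in injured AstroCSF1KO cords. Egr2, at -0.03 ± 0.19, had the smallest fitted change. The median of the 6 was -0.48, against 0.05 over all genes. Without the libraries rich in rRNA reads Prx was at 0.51, Cldn19 at 0.45 and Egr2 at 0.30, with 1 AstroCSF1KO library left.

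The interaction, the injury change in AstroCSF1KO less that in controls, was called for none of the 6 and for 0% of all genes (0 by limma and 0 by voom, 91 at an unadjusted p under 0.05). The rise of Egr2 in AstroCSF1KO cords is therefore not shown to differ from its change in controls, the difference being 0.52 ± 0.30 on the log2 scale (SE). Prx was at 0.28 ± 1.33 and Drp2 at 0.37 ± 0.28.

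Among other genes of the pathway, the list of 8 further genes of myelinating Schwann cells had 7 tested. None was called after injury in controls (1.04% of all genes called) or in both genotypes together (18.0%). In AstroCSF1KO cords 1 rose and 1 fell, where 19.7% of all genes were called as higher and 26.1% as lower. Lgi4, a secreted protein of Schwann cell maturation, rose by 0.43 ± 0.10 (SE, limma adjusted p = 0.00998). Mal, a myelin proteolipid, was at -0.23 ± 0.07 (SE, limma adjusted p = 0.0249).

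In control cords alone limma called 0 of 13 regulators of the myelin programme, all tested (1.04% of all genes called). In AstroCSF1KO cords 5 rose and 2 fell (45.8% of all genes called). With injury averaged over both genotypes 4 rose and 1 fell by limma, where 10.5% of all genes rose and 7.50% fell. Yap1 (0.57 ± 0.10, adjusted p = 0.000805) and Wwtr1, which encodes TAZ (0.93 ± 0.23, adjusted p = 0.0114), are Hippo pathway coactivators of TEAD factors, and Tead1 rose by 0.50 ± 0.13 (adjusted p = 0.0130). Adgrg6, the receptor GPR126 that Schwann cells need to start myelinating, rose by 0.55 ± 0.12 (adjusted p = 0.00526). Nrg1, the axonal growth factor that sets myelination, fell by 0.58 on the log2 scale (SE 0.09, adjusted p = 0.000540). Other cells of the cord express all 5.

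Of 11 genes of the dystroglycan complex and laminin receptors, the partners of Drp2 and periaxin at the basal lamina, 10 were tested. With injury averaged over both genotypes, where 10.5% of all genes rose and 7.50% fell, 3 of the 10 rose. They were the integrins Itga6 (0.66 ± 0.11, adjusted p = 0.000567) and Itgb1 (0.92 ± 0.17, adjusted p = 0.00199) and the laminin chain Lama2 (0.43 ± 0.11, adjusted p = 0.0173). The median of the 10 was 0.22, against -0.04 over all genes. In control cords alone 0 of the 10 were called (1.04% of all genes), and in AstroCSF1KO cords 6 rose and 1 fell (45.8% of all genes called). Of 11 genes of repair and non-myelinating Schwann cells, 7 were tested. With injury averaged over both genotypes Sox2 rose by 0.32 ± 0.10 (adjusted p = 0.0324) and L1cam fell by 0.38 on the log2 scale (SE 0.12, adjusted p = 0.0431, limma). Of all genes, 10.5% rose and 7.50% fell there. The neurotrophin receptor Ngfr was at 0.74 ± 0.42 (adjusted p = 0.278). Of the 14 central myelin genes 1 fell in the same fit, Opalin, by 0.52 on the log2 scale (SE 0.16, limma adjusted p = 0.0318). With 7.50% of all genes lower, 1 of 14 is no excess over the background.

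Markers of tissues next to the cord were high in a few libraries. The 8 sensory ganglion neuron genes summed to 49.0 to 76.6 FPKM in uninjured and 42.1 to 154 FPKM in injured controls, and to 65.7 to 94.5 and 74.1 to 174 FPKM in AstroCSF1KO. These sums are mostly Prph and Calca, with means of 49.7 and 32.0 FPKM over the 14 libraries, against at most 1.65 FPKM for the other genes of the list. Scn10a, the sodium channel of nociceptors, stood at 5.80 FPKM in control SCI replicate 2, at 5.25 FPKM in AstroCSF1KO SCI replicate 4 and at 1.86 FPKM in control SCI replicate 4. It was at most 0.0776 FPKM in the other libraries. In 8 of them it had 0 reads, which allows up to 0.0179 to 0.0313 FPKM, and Prx in those 8 ran from 0.212 to 22.3 FPKM. The 6 skeletal muscle genes summed to 343 FPKM in AstroCSF1KO SCI replicate 1 and to 2.10 to 53.6 FPKM elsewhere. The 8 fibroblast and scar genes summed to 15.7 FPKM in AstroCSF1KO uninjured replicate 3, against 29.1 and 36.5 FPKM in the other uninjured ones, and to 176, 157 and 172 FPKM in AstroCSF1KO SCI replicates 2, 3 and 4, against 432 FPKM in replicate 1. With injury averaged over both genotypes all 8 of these and all 8 macrophage and microglia genes were called as higher, where 10.5% of all genes were. In control cords alone 3 and 7 of them were called as higher (1.04% of all genes called in either direction). In AstroCSF1KO cords 8 and 8 were called as higher (19.7% of all genes). How much root, ganglion or muscle each sample held, and its part in the member levels, was not tested.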

How the data were processed

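Libraries of poly(A) RNA from 14 cord samples kept no strand and were read as pairs of about 150 bp, per the labels' protocols. Per the submitters' processing notes CASAVA 1.8 and HISAT2 were used with mm39; which program and annotation counted reads per gene is not stated in the sources used here. The authors deposited FPKM values with gene lengths and mm39 positions. Whole reads were recovered from them (FPKM times length over the smallest product, 100% whole within 0.01) for depth and floors, which cover counting error only. Limma 3.58.1 in R 4.3.3 fitted log2(FPKM + 1) with a trend on mean level, p-values being two-sided and adjusted by Benjamini-Hochberg over 15155 genes, after a check on simulated data. Each contrast of a pair of groups used only its libraries, and single genes also had exact permutation tests. The labels do not say that replicates are separate animals, so p-values measure the spread between these samples, which may be technical. Same-numbered control libraries deviated together across genes (r = 0.616, 0.832 and 0.733 between uninjured and injured), but the first of each stands apart. Other pairs of groups had at least 1 correlation below 0.1. A fit with replicate as a block is therefore an alternative only.

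The members and lists were chosen with earlier results of these data known, as were the thresholds of 5% single-read genes and 2% rRNA reads. Genes named are the members, up to 4 called genes of each list (or its 2 of highest mean) and the 10 most alike; some genes the rule names are not reported here. Cdh1, Scn7a, Dhh, Gjb1, Sox10, Lgi4, Tead1, Ngfr and Scn10a were named after their values were seen. Promoters are RefSeq's on GRCm38.p6, another build than the mm39 of the table, and GC content is that of the longest GENCODE M21 transcript. Without strand, antisense partners cannot be told apart. Alternatives were a pseudocount of 0.1, no filter, TPM, voom, a fit of all 14 libraries, a replicate block and leaving out libraries.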

Additional observations from a re-analysis of the deposited data

How the results depend on the processing

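Under the alternatives 609 of the members' fitted changes kept their direction and their side of the threshold, 35 changed direction, 7 lost a call and 3 gained one. Genes called in control injury numbered 158, against 63 without the filter and 104 by voom. A fit of all 14 libraries called 1073, and the replicate block 1030. Without the 3 libraries that stand apart (or without all 7), where injury and sex cannot be told apart, 3624 genes were called. Without single replicates 15 to 125 genes were called. In AstroCSF1KO injury 6943 were called, against 1141 in one fit of all 14 and 1446 without the 4 libraries rich in rRNA (or without all 7). There the 1 member called, Egr2, became 0 with a pseudocount of 0.1, no filter, TPM or one fit of all 14, and ranged from 0 to 1 without single replicates. In both genotypes 2735 genes and 0 members were called, against 7751 genes and 1 member without the 3, 6562 genes and 2 members without the 7, and 1029 genes without the 4. Genes called between genotypes went from 0 to 15 in uninjured and to 3 in injured cords without the filter, and to 3 in uninjured cords without the 7. The interaction went from 0 to 4 without the 7. With the replicate block the call of Egr2 in AstroCSF1KO injury stood (limma adjusted p = 0.0302), and no member gained or lost a call.

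The log2 changes that turned direction were these. In control injury Ncmap was at 0.056 without the 3 or the 7 and at 0.16 with the replicate block, and ranged from -0.21 to 0.16 without single replicates, as Egr2 did from -0.0043 to 0.21. In AstroCSF1KO injury Drp2 was at -0.081 without the 4 or the 7 and ranged from -0.15 to 0.25 without single replicates, and Pmp22 from -0.45 to 0.29. Between uninjured genotypes Ncmap was at 0.046 and Cldn19 at 0.083 without the 4, with ranges of -0.55 to 0.046 and -0.99 to 0.083 without single replicates. Between injured genotypes Prx was at 0.51, Cldn19 at 0.45 and Egr2 at 0.30 without the 4, and Egr2 at 0.29 without the 7. Without single replicates Cldn19 ranged there from -0.45 to 0.032 and Egr2 from -0.13 to 0.080. The interaction ranged from -0.0095 to 0.73 for Pmp22, -0.82 to 0.95 for Prx and -0.31 to 0.77 for Cldn19. The alternative without the 4 was chosen after seeing the data. Leaving out libraries leaves fewer samples to fit, and for the other alternatives the cause was not tested. Depth limits Pmp2, and Cldn19 and Egr2 in the libraries where they have under 10 reads.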
